A study of Saccharomyces cerevisiae with 9 samples.

Results

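The last nucleosome before the stop codon is the final nucleosome whose centre, the dyad, lies inside the coding region of a gene. In nucleosome maps of Saccharomyces cerevisiae it was taken, for every protein-coding gene longer than 1000 bp, as the wild-type (WT) call with its dyad nearest to the stop codon and at most 150 bp upstream of it. Of 6008 annotated genes, 3596 were long enough, and 2951 of these (82.1%) had such a call among the 51917 paired calls used. The other 645 genes had none in the window, and 494 of them had a WT dyad within 75 bp past the stop codon instead. The 2951 genes used 2950 different calls, since 1 call served 2 genes. The next gene past the stop codon faced the member in 1446 cases (convergent neighbour), ran in the same direction in 1486 (tandem neighbour) and was not annotated before the chromosome end in 19.

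The maps came from micrococcal nuclease digestion of formaldehyde-fixed chromatin followed by paired-end sequencing (MNase-seq), which reads the DNA that nucleosomes shield. All strains were labelled as BY4742 with a FLAG tag and were grown in rich glucose medium (YPD). They were WT ISW1a, ioc3Δ, which lacks the accessory subunit of the ISW1a remodeler, and ioc3ΔcHLB, in which part of the HLB domain of that subunit is deleted, with 3 biological replicates each. The study's methods describe the tag on IOC3 and on its truncated form, so what carries it in ioc3Δ is not given in the sources used here. The authors merged the replicates before calling nucleosomes, so each call has 1 value per strain, no spread between replicates can be given, and every test here compares 2 merged maps rather than 2 groups of cultures.

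ISW1a is an ATP-driven chromatin remodeler built from the catalytic subunit Isw1 and the accessory subunit Ioc3. Remodelers of the ISWI family slide nucleosomes and even out the spacing between them. Yeast genes begin with a nucleosome-depleted promoter and a well placed first nucleosome, from which an array runs into the coding region and loses order with distance. The 3′ end of a gene, where transcripts are cleaved and transcription stops, has a depleted stretch of its own that is rich in A and T.

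For each call 3 quantities were read. The dyad position gives the shift, counted along transcription, so that a negative value is a move upstream, into the gene. The standard deviation (SD) of the dyads of the single fragments is larger when a nucleosome sits less sharply. Occupancy is the coverage normalised by the authors to the mean genome-wide coverage, and its ratio (ioc3Δ over WT) was divided by the median ratio of all paired calls, 0.892, so that 1 is the ratio of a typical call. IOC3 itself, on chromosome VI from 169922 to 172285 (sacCer3), kept 0.574% of its WT occupancy in the ioc3Δ map. Its own last nucleosome, with WT occupancy 3.87 and ioc3Δ occupancy 0.199, was among the 5 members too shallow to test. In fragments, with the smallest occupancy as 1 fragment, the median member held 458 (WT) and 266 (ioc3Δ). The coverage is therefore deep for most members but not for all.

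The coding strand of 6 members is printed below, from 73 bases before the WT dyad to the stop codon, with the bases from the WT dyad to the ioc3Δ dyad in capitals. The sequences were read from the RefSeq copy of the sacCer3 genome, and the last codon of all 2951 members was a stop codon there (TAA in 1395, TGA in 904, TAG in 652). ITT1 and HXT1 are shown because their dyads moved farthest downstream among well covered, unrepeated members, NAR1 because it shares the longest upstream move with IFM1 and HCS1, GAL1 as a familiar gene with a called move upstream, and GTS1 and XBP1 as examples of a rise and a fall in occupancy. GAL1, GTS1 and XBP1 were chosen for display after their values were seen.
ITT1 (chrXIII:138739-138944, plus strand): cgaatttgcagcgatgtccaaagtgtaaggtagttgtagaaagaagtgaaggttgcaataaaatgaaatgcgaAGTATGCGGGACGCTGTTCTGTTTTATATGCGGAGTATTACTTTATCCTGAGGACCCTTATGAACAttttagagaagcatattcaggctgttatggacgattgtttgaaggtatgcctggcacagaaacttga
HXT1 (chrVIII:290913-291102, minus strand): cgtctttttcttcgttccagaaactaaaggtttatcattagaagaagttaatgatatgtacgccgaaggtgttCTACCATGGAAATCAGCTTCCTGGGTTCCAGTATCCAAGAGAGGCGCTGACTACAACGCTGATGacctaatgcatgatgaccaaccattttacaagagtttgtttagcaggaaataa
NAR1 (chrXIV:198502-198600, minus strand): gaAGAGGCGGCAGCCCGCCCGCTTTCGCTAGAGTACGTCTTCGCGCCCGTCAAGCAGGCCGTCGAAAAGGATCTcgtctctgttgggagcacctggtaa
GAL1 (chrII:280442-280607, plus strand): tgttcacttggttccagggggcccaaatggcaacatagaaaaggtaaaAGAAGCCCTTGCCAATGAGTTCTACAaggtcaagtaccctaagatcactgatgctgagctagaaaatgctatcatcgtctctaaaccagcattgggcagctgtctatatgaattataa
GTS1 (chrVII:158948-159096, plus strand): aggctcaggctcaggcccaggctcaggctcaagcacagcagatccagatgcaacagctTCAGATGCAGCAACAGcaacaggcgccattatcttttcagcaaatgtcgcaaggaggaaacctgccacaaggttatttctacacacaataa
XBP1 (chrIX:175307-175406, minus strand): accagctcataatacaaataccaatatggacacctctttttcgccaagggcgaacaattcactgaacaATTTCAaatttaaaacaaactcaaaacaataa
Bases A and T made up 38.4% of the printed stretch of NAR1, 49.7% of that of GTS1 and 67.0% of that of XBP1.

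Without Ioc3 most last nucleosomes sat slightly farther upstream, deeper in the gene. The median shift over the 2951 members was -2 bp (distribution-free 95% interval -3 to -2, interquartile range -7 to 1). Of the members, 65.3% moved upstream, 27.0% moved downstream and 7.66% kept the same dyad. The move was small for most of them, since 76.1% shifted by 10 bp or less, but the longer moves were uneven as well: 303 members moved upstream by more than 20 bp and 118 downstream, and 121 moved upstream by more than 40 bp and 54 downstream. Calls on the plus strand (66.9% upstream) and on the minus strand (63.6% upstream) showed the same direction of transcription, not one direction along the chromosome. Position taken as the mean of the fragment dyads, in place of their peak, gave a median shift of -5 bp and 74.5% upstream.

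The test of single calls followed the study's methods, with the dyad difference, both SDs and the occupancy as the number of observations (unequal-variance test, two-sided, unadjusted p under 0.01). Of 2946 members tested, 451 (15.3%) were called upstream, against 9.51% of all calls in coding regions of genes over 1000 bp. Another 129 (4.38%) were called downstream, against 13.3% of the coding calls. The members thus had more upstream and fewer downstream calls than coding nucleosomes in general. The high share upstream was not particular to them. With each coding region cut into 10 equal parts, 16.0% of calls in the eighth and 19.3% in the ninth were called upstream. Called downstream there were 7.41% and 6.41%. With p-values adjusted by Benjamini-Hochberg over all paired calls and a threshold of 0.05, 463 members were called upstream and 130 downstream, against 9.63% and 13.4% of the coding calls. With 3 observations per strain in place of the occupancy, the same unequal-variance test called 0 members in either direction, and 1 upstream and 0 downstream at an unadjusted p under 0.05.

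**Figure D1:**
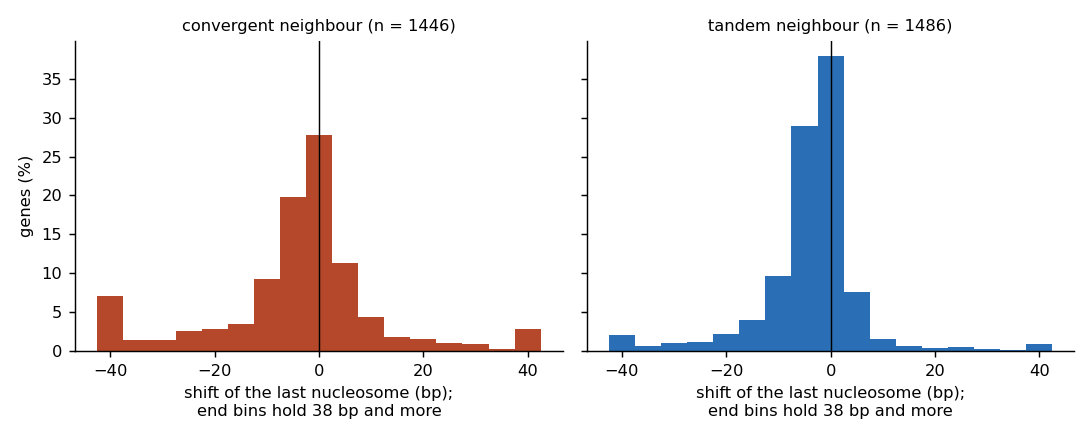
Distribution of the shift of the last nucleosome (bp, ioc3Δ minus WT, negative is upstream) as a percent of genes, in 5-bp bins, for 1446 genes with a convergent and 1486 with a tandem neighbour. The mass lies left of 0 in both, at 60.8% and 69.4% of genes, and the convergent genes spread wider.

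The move upstream was the reverse of what the first nucleosomes of the same genes did. The first nucleosome of the array (+1) had a median shift of 2 bp and moved downstream in 70.3% of genes, the +2 nucleosome 4 bp (81.6% downstream) and the +3 nucleosome 5 bp (79.1% downstream). From there the shift fell, to 4 bp at +4, 2 bp at +5 and 1 bp at +6. Counted back from the stop codon, the last nucleosome but 5 had a median of 1 bp, the last but 4 of 0 bp, the last but 3 of -2 bp, the last but 2 of -3 bp and the last but 1 of -4 bp, with 68.7% of the last but 1 upstream. The median of the last nucleosome was -2 bp (interval -3 to -2), beside -4 bp for the one before it (interval -4 to -3). These intervals meet at -3 bp and come from the same genes, so no difference in size is concluded. With each coding region cut into 10 equal parts, the median over all its calls was 3 bp in the first part, 5 bp in the second, 0 bp in the fifth and the sixth and -3 bp in the ninth.

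**Figure D2:**
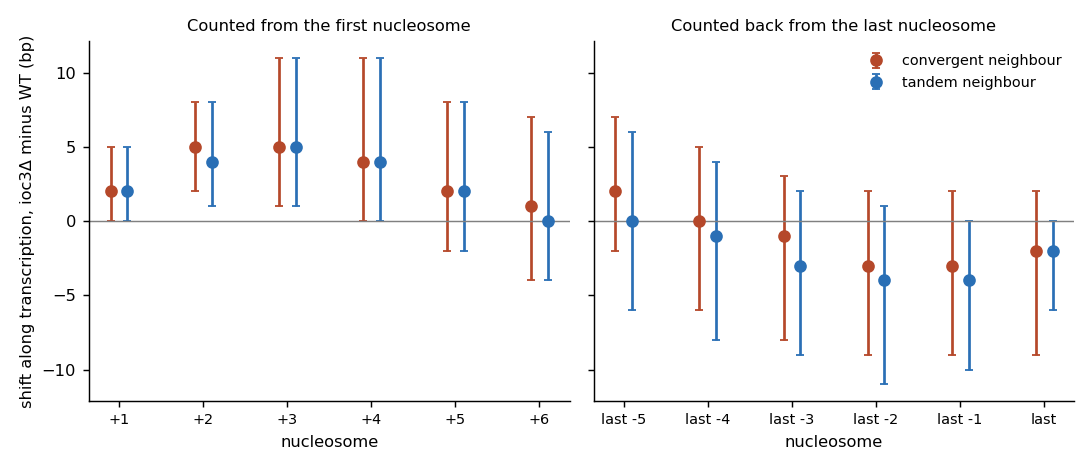
Median shift (points) and interquartile range (bars) in bp along transcription for nucleosomes counted from the first of the array (left) and back from the last (right), by neighbour class. Medians are 2 to 5 bp at +1 to +5 and -4 to -2 bp at the last 3 positions.

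Within single genes both ends moved toward each other. In 2820 genes with a +2 and a last nucleosome, the shift of the last minus that of +2 had a median of -8 bp (95% interval -8 to -7). The last moved upstream while +2 moved downstream in 1509 of these genes (53.5%), and the opposite pairing occurred in 109 (3.87%). The stretch from +2 to the last dyad was shorter in ioc3Δ in 78.7% of the genes, and that from +1 to the last in 72.7% of 2900 genes, by a median of 5 bp. The shortening from +2 had a median of -7 bp in genes of up to 1500 bp and -7.5 bp in genes over 2500 bp, where the WT stretch was 978 and 2995 bp long.

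Past the stop codon the shift went toward 0 and then downstream. In calls with the WT dyad up to 50 bp past it the median was still -2 bp in both neighbour classes, with 58.5% (convergent) and 61.4% (tandem) upstream. In the next 50 bp it was -1 bp with a convergent and -2 bp with a tandem neighbour, and by 200 to 250 bp past the stop codon it was 1 bp in both. The median gap to the neighbouring coding region was 236.5 bp (convergent) and 391.5 bp (tandem), so such calls can belong to the neighbour. In a facing gene, a shift counted as downstream here is upstream for that gene. The change of sign can therefore come in part from the direction of counting. Where a further call lay past the stop codon within 1 array step (1155 genes), its median shift was -1 bp, with 53.0% upstream, and the call after that (549 genes) had a median of 1 bp. Just outside the 150-bp window, dyads up to 20 bp beyond it, in genes without a member, had a median shift of -4 bp, and those in the outermost 20 bp of the window one of -3 bp. Genes of over 900 to 1000 bp, just under the length limit, had a median of -2 bp, the same as genes of over 1000 to 1100 bp.

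Genes with a convergent or a tandem neighbour had the same median shift, -2 bp (95% interval -3 to -2 in both). The share moved upstream was lower with a convergent neighbour, 60.8% against 69.4%, a difference of 8.66 percentage points (95% interval 5.22 to 12.1, genes taken as independent). Calls upstream were 214 (14.9%) with a convergent and 226 (15.2%) with a tandem neighbour, and calls downstream were 81 (5.62%) and 47 (3.16%). In WT the last nucleosomes before a convergent neighbour sat less sharply, with a median SD of 30.5 bp against 21.3 bp, a difference of 9.16 bp (8.43 to 9.91), and held less occupancy, 52.0 against 75.3. Among members with a WT SD at or under the median of all calls, 65.5% of 357 convergent and 73.03% of 1079 tandem members moved upstream. Among broader members the shares were 59.2% of 1089 and 59.95% of 407.

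**Figure D3:**
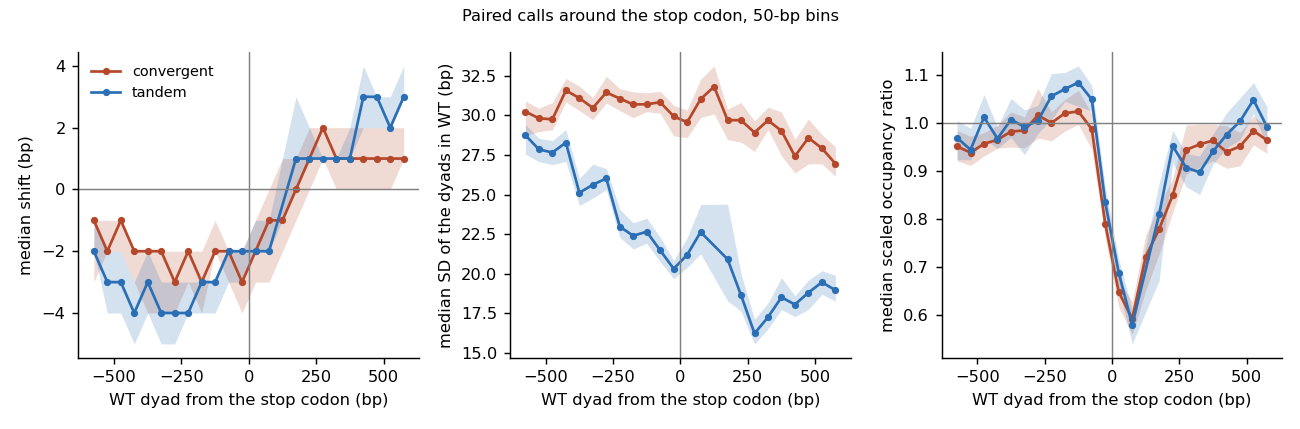
Medians with 95% intervals (bands) of the shift (bp), the WT SD of the dyads (bp) and the scaled occupancy ratio of all paired calls in 50-bp bins of the WT dyad's distance from the stop codon, by neighbour class. The shift turns from negative to positive past the stop codon, the WT SD differs between the classes by 9.16 bp at the last nucleosomes, and the occupancy ratio is lowest just past the stop codon. Bins far past the stop codon can hold calls of the neighbouring gene, with the sign reversed where that gene faces the member.

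The 19 genes without a neighbour before the chromosome end formed a small group apart. Their members had a median shift of -3 bp, and 11 were called upstream, against 15.3% of all members and 9.51% of coding calls. Their median WT occupancy was 993, against 63.2 over all members, and the test takes occupancy as the number of observations. These lie in repeated chromosome ends, where the mapping of reads that fit several places is not given in the sources used here. In 63 members from Ty retrotransposon genes, which also occur in several copies, the median shift was 0 bp (44.4% upstream).

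Among convergent genes the share moved upstream was 56.4% where 0 to under 200 bp lay between both coding regions (569 genes), 62.6% from there to 300 bp (374 genes), 65.3% from there to 500 bp (300 genes) and 64.0% at longer distances (189 genes), values given with no test. For tandem genes the share was 72.4%, 68.0%, 70.8% and 70.7% at the same distances. Where coding regions overlapped, the 37 tandem members had a median shift of 0 bp and the 14 convergent members one of -0.5 bp.

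The length classes lay close together. The median shift was -2 bp in 1103 genes of up to 1500 bp, -3 bp in 1174 genes of up to 2500 bp and -2 bp in 674 longer genes. The share upstream was 64.6%, 67.3% and 63.1% in that order. The longest class differed from the shortest by -1.49 percentage points, with an interval from -6.10 to 3.11 that includes 0. The difference was -7.35 points with dyads within 75 bp of the stop codon and 3.77 points in the upper 75% of occupancy, so its sign depends on the members taken. Across the 2951 members the shift was nearly unrelated to gene length (Spearman's rho 0.02), to the distance from the stop codon (0.02), to WT occupancy (0.06) and to WT SD (0.03), values given as a description since neighbouring genes share stretches of chromatin.

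Where both genes of a convergent pair were members, their last nucleosomes faced each other across the 2 stop codons. In 339 such pairs the dyads lay 395 bp apart in WT at the median, and the distance grew by a median of 6 bp in ioc3Δ (95% interval 4 to 8). It was longer in 64.0% of the pairs and shorter in 33.0%. Both dyads moved upstream, away from each other, in 131 pairs (38.6%), both moved downstream in 37 (10.9%) and 137 moved the same way along the chromosome. Both members were called in 15 of the 339 pairs, of which 9 moved apart, 1 moved together and 5 moved in parallel. Single members with a convergent neighbour were called in 20.5%, in either direction. Whether 15 pairs are more than unrelated members would give was not tested, so the count is a description.

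In TPD3 and NTG1, which encode the scaffold subunit of protein phosphatase 2A and a DNA glycosylase of base excision repair, the distance went from 353 bp in WT to 448 bp, with shifts of -71 and -24 bp. SOF1, for a protein of the small ribosomal subunit processome, and PSR1, for a plasma membrane phosphatase, had shifts of -47 and -46 bp, and their dyads went from 576 to 669 bp apart. TOF1, for a subunit of the replication fork protection complex, and SEC2, for an exchange factor of secretory vesicles, went from 259 to 338 bp. These 3 separated most of the pairs in which both members were called. By the mean of the fragment dyads their distances grew less, by 75, 69 and 56 bp. Of their members only TOF1, at 86.2, had a WT occupancy over the median of all calls, 58.3. The lowest occupancy was that of SOF1, 20.6 in WT and 15.9 in ioc3Δ. The largest approach, by 64 bp from a WT distance of 1126 bp, was between the Ty genes YPR158W-B and YPR158C-D, which are repeated sequence. RRD2 and PRP46 went from 228 to 200 bp, ARP9 and RCH1 from 169 to 159 bp and LEU2 and NFS1 from 471 to 464 bp. In each of the last 3 pairs 1 dyad moved upstream and the other farther downstream, and by the mean of the fragment dyads the distances grew, by 5, 2 and 12 bp. LEU2 is an auxotrophic marker locus of BY4742, and where its fragments came from was not tested.

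In tandem genes the last nucleosome looks toward the first nucleosome of the next gene. Over 1419 such genes the median WT distance between both dyads was 471 bp, and it grew by a median of 5 bp (95% interval 5 to 5), in 75.5% of the genes. The last nucleosome moved upstream and the first of the neighbour downstream in 638 genes (45.0%), and the reverse pairing occurred in 69 (4.86%). With 0 calls between both dyads (974 genes) the change was 5 bp and with 1 call between them (404 genes) 6 bp. Distances across the gap between genes thus lengthened in both arrangements while those within the genes shortened.

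The dyads of the last nucleosomes were also spread wider without Ioc3, though by less than those of a typical call. The median SD change was 1.72 bp (95% interval 1.57 to 1.86), with 72.3% of members broader in ioc3Δ, while over all paired calls it was 2.41 bp with 77.3% broader. At +3 the same genes had a change of 3.90 bp. The small rise was not particular to the members. With each coding region cut into 10 equal parts, it was 1.87 bp in the sixth, 1.52 bp in the seventh and 1.60 bp in the eighth. Counted back from the stop codon, the last but 1 (2.47 bp) and the last but 2 (2.91 bp) had larger changes. Among the members the change was 2.09 bp (1.97 to 2.24) with a tandem neighbour and 1.14 bp (0.971 to 1.39) with a convergent neighbour. Among members that were sharp in WT (SD at or under the median of all calls) the change was 2.63 bp in convergent genes (interval 2.29 to 3.16) and 2.43 bp in tandem genes (2.24 to 2.61), and these intervals overlap. Among the broader ones it was 0.590 and 0.786 bp. The SD change fell as the WT SD rose (Spearman's rho -0.36, n = 2951), and the WT SD is part of both quantities.

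The occupancy of the members changed with their place and their base composition. The median scaled ratio was 0.958 (95% interval 0.939 to 0.972), slightly below that of a typical call. It was above 1 in other settings, at 1.01 in the upper 75% of occupancy, 1.02 as a mean and 1.17 from summed occupancies, so no direction is given for the members as a whole. It was 0.809 (0.789 to 0.830) in 1049 members with the WT dyad within 49 bp of the stop codon, 1.02 (0.996 to 1.04) in 1054 at 50 to 99 bp and 1.06 (1.03 to 1.09) in 848 at 100 to 150 bp. The stretch of 147 bp around the dyad held a median of 63.9% A and T in the members nearest the stop codon, 59.9% in the next and 59.2% in the farthest. Past the stop codon the first call had a ratio of 0.655 and 68.0% A and T.

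**Figure D4:**
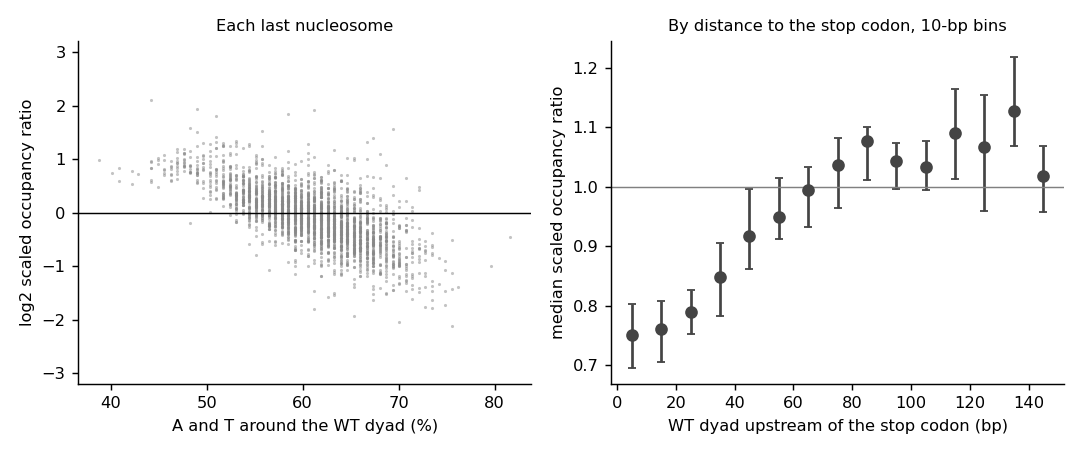
Left, log2 scaled occupancy ratio (ioc3Δ over WT) of each last nucleosome against the share of A and T (%) in the 147 bp around its WT dyad. Right, median ratio with its 95% interval by distance of the WT dyad from the stop codon in 10-bp bins, which rises from 0.751 in the nearest bin to 1.13 at 130 to 139 bp.

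Split by A and T content, the ratio was 1.27 in the quartile of members with the least (775 members), 1.01 in the next (815), 0.846 in the third (701) and 0.675 in the quartile with the most (660). The other calls in the coding regions of long genes, sorted by the same limits, had ratios of 1.27, 1.02, 0.899 and 0.776. In the 2 quartiles richest in A and T the members were therefore lower than other coding calls, with intervals of 0.828 to 0.867 against 0.893 to 0.903 and of 0.660 to 0.695 against 0.769 to 0.783. Composition was not fully matched in the richest, where members held a median of 67.3% A and T and other coding calls 66.7%. Members of the richest quartile had a ratio of 0.653 within 49 bp of the stop codon and 0.699 at 100 to 150 bp. Those of the poorest had 1.19 and 1.29, so the distance made a smaller difference within a quartile. Across members the ratio and the A and T content had Spearman's rho of -0.69 (n = 2951), and across the other coding calls -0.59 (n = 36107). With 1 merged map per strain, a difference in digestion between the maps cannot be told apart from the strain. The median shift was -2, -2, -3 and -3 bp from the poorest to the richest quartile and the mean shift -2.74, -3.54, -4.60 and -6.09 bp, while the share upstream was 64.4%, 66.0%, 67.0% and 63.6%.

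Single members stood out in both directions. The named ones below are those with the largest called shifts and an occupancy at or over the median of all calls in both strains (58.3 in WT, 50.2 in ioc3Δ). All 13 were also called after adjustment over all paired calls. Moves of 71 or 72 bp among them lie at the limit that the pairing of calls allowed, so longer moves would not appear. Their single p-values are not given, since they count fragments of merged maps and not cultures.

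**Figure D5:**
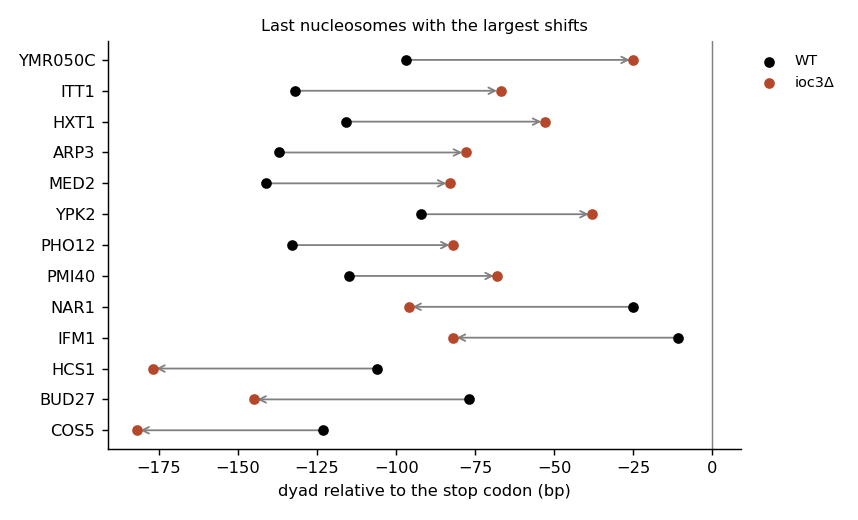
Dyad positions of the last nucleosome relative to the stop codon (bp, at 0) in WT and ioc3Δ for the 8 members with the largest called downstream and the 5 with the largest called upstream shifts. Arrows run from WT to ioc3Δ, and all 13 end inside the coding region.

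ITT1, printed above, encodes a RING-type ubiquitin transferase, and its dyad went from 132 bp before the stop codon 65 bp downstream, while the occupancy went from 63.8 to 58.8. The dyad of HXT1, a low-affinity glucose transporter, moved 63 bp downstream (occupancy 93.5 and 95.8). ARP3, for an actin-related subunit of the Arp2/3 complex, moved 59 bp and sharpened, its SD going from 39.7 to 30.0 bp. MED2, for a tail subunit of the Mediator complex, moved 58 bp, and PMI40, for mannose-6-phosphate isomerase, moved 47 bp. The protein kinase gene YPK2 moved 54 bp downstream, with its occupancy going from 163 to 233. PHO12, an acid phosphatase gene with a close copy elsewhere in the genome, moved 51 bp while its occupancy went from 346 to 178. The Ty gene YMR050C moved 72 bp, and its sequence is not printed since it is repeated. In all 8 members the fragment mean moved less than the peak, by 21 bp in YPK2, 22 bp in HXT1 and PMI40 and up to 52 bp in ITT1.

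NAR1, for a factor of cytosolic iron-sulfur protein assembly, had its dyad 25 bp before the stop codon in WT and 71 bp farther upstream in ioc3Δ, and its occupancy went from 500 to 1916. In the table labelled ioc3ΔcHLB, described at the end, the shift of NAR1 was 1 bp and that of YPK2 was -2 bp, so both turned there. IFM1, for the mitochondrial translation initiation factor 2, moved 71 bp upstream from 11 bp before the stop codon (occupancy 92.6 and 62.0). HCS1, for a DNA helicase, moved 71 bp upstream as well (occupancy 67.0 and 72.1). BUD27, for a prefoldin-like protein, moved 68 bp by its peak and 23 bp by its fragment mean, at occupancies of 774 and 1215. COS5, a member of a subtelomeric gene family with similar copies, moved 59 bp. The 13 members had WT SDs from 24.5 bp in PHO12 to 40.2 bp in YMR050C, and all but PHO12 were broader than the median of all calls, 26.0 bp.

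Among members with occupancy over both medians, the SD rose most in PHO12 (24.5 to 35.8 bp), RRD1 (20.9 to 32.1 bp), SUC2 (22.0 to 33.2 bp) and EAP1 (28.6 to 39.5 bp). RRD1 encodes an activator of protein phosphatase 2A, SUC2 invertase and EAP1 a protein that binds the cap-binding factor eIF4E. Their dyads, apart from that of PHO12, had shifts of -7, -8 and -12 bp that were not called. The SD fell most in BSC6 (33.4 to 17.6 bp), LEU2 (37.5 to 26.3 bp) and THI22 (35.12 to 25.03 bp). The BSC6 value came with a rise in occupancy from 173 to 315. LEU2 is an auxotrophic marker locus of BY4742, and where its fragments came from was not tested.

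Among members with a WT occupancy over the median of all calls, the scaled occupancy ratio was highest in NAR1 (4.30), GTS1 (3.83), LEU2 (3.59) and MDG1 (3.49). GTS1, whose printed stretch repeats glutamine codons, went from an occupancy of 953 to one of 3254. LEU2 had 87.8 and 281. It is an auxotrophic marker locus of BY4742, and the source of its fragments was not tested. The ratio was lowest in XBP1 (0.244), YHC3 (0.286), GRE2 (0.292) and SPT23 (0.300). XBP1 encodes a transcriptional repressor of the stress response, GRE2 a methylglyoxal reductase and SPT23 a membrane-bound activator of fatty acid desaturation. YHC3 encodes an amino acid transporter of the vacuole. The WT dyads of all 4 lay within 26 bp of the stop codon. The A and T content around them was 70.1% in XBP1, 73.5% in GRE2 and 74.8% in SPT23, and 61.2% in YHC3, the median of all members. XBP1 went from an occupancy of 59.6 to 12.9. The 147 bp around NAR1, GTS1 and MDG1 held 44.2%, 48.98% and 51.0%, and those around LEU2 58.5%.

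The 25 genes of a list of transcript 3′-end machinery, which cleaves and polyadenylates transcripts or ends transcription of short RNAs, had 20 genes over 1000 bp and 15 members. Their median shift was -1 bp, with 8 upstream and 5 downstream, and 1 of the 15 was called upstream, against 15.3% of all members and 9.51% of coding calls. This was MPE1, a subunit of the cleavage and polyadenylation factor, with a shift of -31 bp and an SD that went from 27.3 to 34.6 bp. The RNA-binding proteins HRP1 and NRD1 had shifts of 0 and 1 bp while their occupancies went from 1770 to 2554 and from 1612 to 2516. NAB3, the partner of NRD1, had a shift of 13 bp that was not called, and the protein phosphatase gene GLC7 one of -2 bp.

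Among genes transcribed strongly in glucose, 21 of 29 were members, with a median shift of 0 bp, 9 upstream and 9 downstream. Those called, both upstream, were RPL3, for a ribosomal protein, at -22 bp and the chaperone gene SSA1 at -5 bp, the latter at a WT occupancy of 3426. They were 9.52% of the members of this list, against 15.3% of all members and 9.51% of coding calls called upstream. The share of this list was thus that of coding calls. The glycolytic genes ADH1, CDC19 and ENO1 had shifts of 2, -11 and 1 bp and were not called. EFT1 and EFT2, which encode the same elongation factor and cannot be kept apart over shared sequence, had 0 and 1 bp. The members of this list were broad in WT, with a median SD of 31.1 bp against 26.2 bp for all members, and their median SD change was 0.476 bp.

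Of 22 genes that are transcribed little in glucose, 19 were members, and these were sharp, with a median WT SD of 20.3 bp. Their median shift was -2 bp, with 13 upstream and 4 downstream, and their median SD change was 2.50 bp. The 5 called upstream were GAL1 for galactokinase at -25 bp, GAL7 for the uridylyltransferase of galactose breakdown at -59 bp, ADH2 for the glucose-repressed alcohol dehydrogenase at -13 bp, ICL1 for isocitrate lyase at -12 bp and ZIP1 for a protein of the synaptonemal complex at -25 bp. GAL10, for the epimerase of the same pathway, was called downstream at 15 bp. The SD of GAL1 went from 23.4 to 31.1 bp and that of GAL7 from 22.7 to 35.9 bp. CAT8 and FBP1 had shifts of 2 and -2 bp, and DMC1 one of -5 bp, none of them called. The share called upstream in this list was 26.3%, against 15.3% of all members and 9.51% of coding calls, over 19 members.

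Of 18 genes for chromatin factors that act over coding regions, 15 were members and 14 were tested, since IOC3 was not. Their median shift was -3 bp, with 10 upstream, the IOC3 call included, and 5 downstream. The 5 called, all upstream, were the remodeler ATPases INO80 at -53 bp and ISW2 at -68 bp, IOC2, an accessory subunit of the other Isw1 complex, at -10 bp, the deacetylase RPD3 at -25 bp and the histone chaperone SPT16 at -24 bp. These were 35.7% of the 14 tested, against 15.3% of all members and 9.51% of coding calls. By the mean of the fragment dyads the shifts were smaller in INO80 (-33 bp), ISW2 (-39 bp), IOC2 (-8 bp) and RPD3 (-8 bp) and larger in SPT16 (-40 bp). The WT occupancies of INO80 (54.9), ISW2 (38.8) and SPT16 (38.9) were under the median of all calls, 58.3. CHD1 and EAF3 had shifts of -3 and -7 bp that were not called. The lists hold 15 to 21 members each, and all 4 medians lay between -3 and 0 bp, beside -2 bp over all members.

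In the table labelled ioc3ΔcHLB, paired with its own WT table, 2970 genes had a last nucleosome. The median shift was -1 bp (58.2% upstream), 10.5% were called upstream and 4.32% downstream, and all paired calls of that table were called in 16.6%, against 21.1% in the ioc3Δ table. The median SD change was 3.15 bp and the median scaled occupancy ratio 0.956. This table shares its WT map with the ioc3Δ table, and the same WT dyad was taken in 2920 of the 2921 genes with a member in both. Its mutant occupancy matched that of ioc3Δ within 1% in 60.4% of the calls found in both tables, whereas WT and ioc3Δ occupancies matched as closely in 2.35%. At IOC3 it held 0.680% of the WT occupancy, although the label describes a partial deletion. Its values are therefore given beside those of ioc3Δ and not as those of a separate mutant.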

How the data were processed

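The authors mapped paired reads to sacCer3 with Bowtie2 (version 2.0 per the labels), merged 3 replicates per strain, left out the rRNA locus and called nucleosomes with a greedy algorithm. The deposited tables pair WT with mutant calls that overlap by at least 73 bp, so unpaired nucleosomes are not analysed here. Paired dyads lay at most 72 bp apart, which cuts off longer shifts. The authors computed the deposited dyad and SD values, scores in bp, from the centres of the read pairs. The authors normalised the deposited occupancy, a coverage signal, to the genome-wide mean. Of 53840 rows, 1911 repeats and 12 rRNA rows were dropped. Genes came from the RefSeq annotation of the same build. Whether positions count from 0 or 1 is not given in the sources used here.

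The test needed an occupancy of at least 2 in both strains. It was also run on simulated shifts drawn with the spread that the test itself assumes. That run checks the computation only and gives no information on variation between cultures or digestions. Each further nucleosome lay 110 to 230 bp from the one before, and the first from 60 bp upstream to 120 bp downstream of the start codon. Intervals over genes are binomial and treat genes as independent. Python 3.11.15, pandas 2.3.3 and scipy 1.17.1 were used. Named members were the 8 and 5 largest called shifts, 4 and 3 largest SD changes, 4 highest and 4 lowest occupancy ratios, 4 and 3 convergent pairs, and the first members of 4 lists by symbol; all members of a list that were called are named too, chosen after their values were seen. Members and lists were chosen with earlier results of these data known.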

Additional observations from a re-analysis of the deposited data

How the results depend on the processing

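No paired analysis was possible because the replicates were merged before the deposited calls were made. Of the main results under the alternatives, 123 values stayed within their limits and 44 moved. Among the latter the length difference changed sign and the occupancy ratio passed 1. With dyads within 75 bp of the stop codon, calls were 231 upstream and 46 downstream, the SD change 1.90 bp, the occupancy ratio 0.869, the WT SD difference between classes 10.003 bp and the length difference -7.35 points; with 75 bp on either side the SD change was 2.04 bp and the ratio 0.773. In genes over 1500 bp, calls were 284 and 64. In the upper 75% of occupancy the ratio was 1.01 and the length difference 3.77. In sharp WT calls, calls were 221 and 26, the SD change 2.45 bp, the ratio 0.928 and the class difference 3.25 bp. With mean dyads the shift was -5 bp, downstream calls 82, last minus +2 -11 bp, and facing and tandem distances grew by 12 and 8 bp. Means in place of medians gave -4.15, 1.02, 7.83, -9.92, 10.1 and 6.72 for the shift, ratio, class SD difference, last minus +2, facing and tandem distances. Dyads at most 40 bp apart left 78 downstream calls. With 3 observations per strain the unequal-variance test made 0 calls in either direction at an unadjusted p under 0.01 and 1 upstream and 0 downstream at 0.05; with whole fragments it made 1070 and 303. The ratio was 0.854 unscaled and 1.17 from summed occupancies. Neighbours within 500 bp gave a class SD difference of 10.4 bp. The table labelled ioc3ΔcHLB gave -1 bp, an SD change of 3.15 bp, a class difference of 3.81 points, last minus +2 of -6 bp and distances of 3 and 4 bp. There YPK2 (-2 bp), NAR1 (1 bp) and YHC3 (-66 bp) reversed, the cause was not tested. Members with WT neighbours over 150 bp away, an alternative chosen after seeing the data, gave 1.92 bp and 0.934. Of 45 named members, 22 lost their call with 3 observations per strain and 3 with mean dyads. The setting with 3 observations kept the SDs of the merged maps, so its lost calls give no information on the replicates.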
